A study of Mus musculus with 6 samples.

Results

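Transcripts of 9 genes that mark bile duct epithelium and liver progenitor cells were followed in bulk liver RNA of mice with and without Igfbp7, which encodes insulin-like growth factor binding protein 7. The genes were chosen by name, with earlier results of these data known. They are the keratins Krt7, Krt8, Krt18 and Krt19, the surface and junction proteins Epcam, Cldn7 and Cd24a, the transcription factor Sox9 and the secreted protein Spp1. All 9 were among the 22609 genes listed for each library, and 8 of them passed the filter on low counts, as 12522 of all genes did. The wild type group was adult liver of C57BL/6 mice, and the knockout group was adult liver of C57BL/6 mice labelled IGFBP7 knock-out, made with Cre and loxP, each with 3 libraries. No Cre driver, sex, age in numbers, treatment or pooling of animals is given in the sources used here, and nothing says that the 3 libraries of a genotype came from separate mice, so p-values measure the spread between these samples only, which may be technical.

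Keratins are the intermediate filament proteins of epithelia, and each filament needs a type II keratin, such as Krt7 or Krt8, bound to a type I keratin, such as Krt18 or Krt19. Hepatocytes make Krt8 and Krt18, whereas Krt7 and Krt19 are used in liver to recognise cholangiocytes, the cells that line bile ducts. Sox9, Epcam, Cd24a and Spp1 are found in cholangiocytes and in the duct-like cells that appear when liver regenerates after injury, and Spp1 is also made by macrophages, and Cd24a by B cells and immature blood cells.

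Total counts over genes ran from 16712568 to 22419411 per library, and levels are given as CPM, counts per 1000000 of the TMM-adjusted library size. Single values are in the order of replicates 1, 2 and 3. Igfbp7 was at 1438, 1705 and 1055 counts in the wild type libraries and at 5, 2 and 9 counts in the knockout libraries, so the labels and the targeted transcript matched. Wild type replicate 1 stood apart in the clock gene Arntl, at 17.6 CPM, with the remaining 5 libraries between 1.91 and 2.85 CPM. Hepatocyte genes such as Alb and Ttr were abundant, with the 18 hepatocyte markers summing to 139123 to 175163 CPM per library. Defining duct genes were scarce, with Cftr, the chloride channel of duct cells, at 0 to 13 counts and Sctr, the secretin receptor, at 0 to 2 counts per library.

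The 250 bases before the annotated start are shown for Spp1, Krt8 and Krt18, the 3 tested genes whose knockout values all lay below all wild type values. They come from RefSeq on GRCm38.p6, whose promoter table held 6 of the 9 genes, and they lie at chr5:104434861-104435110 on the plus strand, chr15:102004343-102004592 on the minus strand and chr15:102027966-102028215 on the plus strand. Capitals mark matches to 6 motifs, searched on both strands. They are TATAAA, the core promoter element bound by the TATA-binding protein, and the promoter element CCAAT, which is bound by the factor NF-Y. The others are GGGCGG, which zinc finger proteins of the SP family bind, and TGANTCA, which the AP-1 dimer of Fos and Jun proteins recognises. The last pair are GTGGGAA, for RBPJ, through which Notch receptors act on their targets, and CATTCC, for the TEAD factors, through which YAP acts. No match overlapped a match to another motif.
Spp1: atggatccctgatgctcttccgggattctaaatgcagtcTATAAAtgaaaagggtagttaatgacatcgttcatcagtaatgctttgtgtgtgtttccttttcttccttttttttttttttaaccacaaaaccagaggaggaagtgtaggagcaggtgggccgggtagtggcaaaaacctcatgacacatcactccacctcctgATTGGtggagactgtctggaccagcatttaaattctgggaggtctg
Krt8: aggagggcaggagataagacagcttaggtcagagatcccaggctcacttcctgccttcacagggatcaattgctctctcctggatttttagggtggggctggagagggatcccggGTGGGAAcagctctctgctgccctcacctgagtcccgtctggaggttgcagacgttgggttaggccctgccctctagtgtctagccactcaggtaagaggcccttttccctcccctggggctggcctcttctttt
Krt18: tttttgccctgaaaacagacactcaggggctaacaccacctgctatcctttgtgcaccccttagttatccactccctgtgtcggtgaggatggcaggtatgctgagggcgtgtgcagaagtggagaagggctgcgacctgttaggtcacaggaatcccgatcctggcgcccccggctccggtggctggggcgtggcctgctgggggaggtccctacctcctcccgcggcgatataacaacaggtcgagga

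The Spp1 window held TATAAA starting 211 bases and CCAAT starting 46 bases before the start, the Krt8 window held GTGGGAA starting 135 bases before it, and the Krt18 window held none of the 6 motifs. Among 32817 windows of that length in the table, 12.4% held TATAAA, 32.7% GGGCGG, 33.8% CCAAT, 6.75% TGANTCA, 5.42% GTGGGAA and 12.6% CATTCC. These matches are descriptions of the letters and say nothing of binding. Krt8 and Krt18 both lie on chromosome 15, in opposite orientations, and Spp1 lies on chromosome 5, which also carries Igfbp7.

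Levels fell into an abundant and a scarce set. Per kilobase of transcript, using the longest principal transcript of each gene in GENCODE M21, Krt18 was highest at 110 ± 8.52 CPM per kilobase in wild type livers (SD, n = 3). Spp1 followed at 56.4 ± 8.67 and Krt8 at 53.5 ± 7.94 (SD, n = 3 each), which did not differ beyond their spread. The other 6 genes were at 1.54 CPM per kilobase or less in wild type livers, in the order Cd24a, Sox9 (0.947), Epcam (0.693), Krt19 (0.618), Cldn7 (0.411) and Krt7 (0.212). Neighbours in that order from Sox9 to Cldn7 overlapped in their library values. The value for Krt7 depends on the length used, at 0.212 for its principal transcript of 4094 bases and 0.123 for all 7049 annotated exon bases. Krt18 was at 179 times the level of Krt19 per kilobase in wild type and 180 times in knockout livers, with no overlap between libraries.

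**Figure D1:**
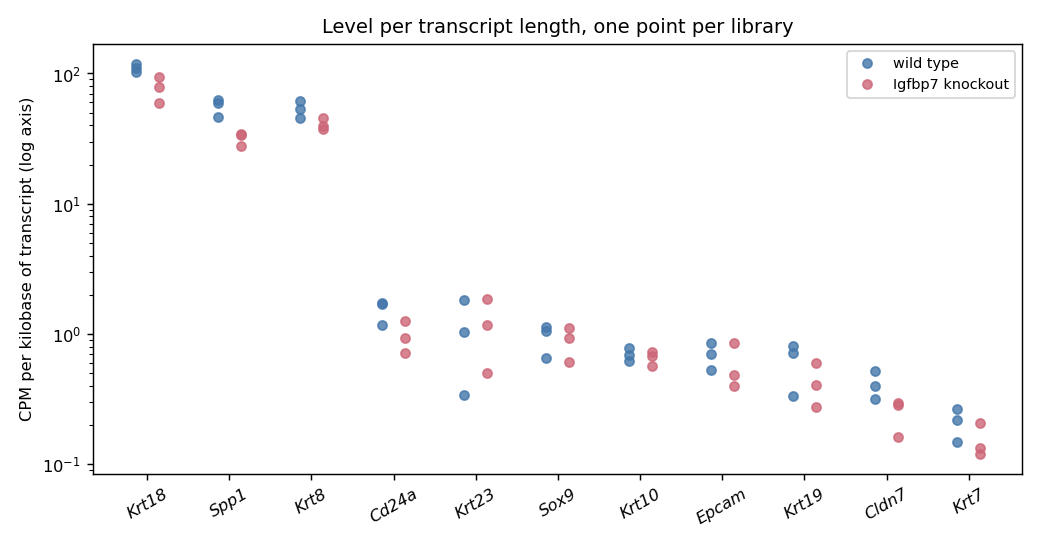
CPM per kilobase of transcript (log axis) for the 9 genes and the other 2 tested keratins, Krt10 and Krt23, with 1 point per library, blue for wild type and red for Igfbp7 knockout. Krt18, Spp1 and Krt8 lie at 27.9 CPM per kilobase or more in every library, and the other genes at 1.85 or less.

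No gene of the 9 reached an adjusted p under 0.05 in edgeR's quasi-likelihood test, which called 0.216% of all genes tested, 0.0878% as lower in the knockout. A difference with an unadjusted p under 0.05 is called nominal. Nominally, 4 were lower in the knockout, Spp1, Krt18, Krt8 and Cd24a, as were 7.35% of all genes tested. Without wild type replicate 1 the count was 2, Spp1 and Krt18. DESeq2 and edgeR with robust estimation each called 1, Spp1, against 3.64% and 0.543% of genes called by those tests. So did edgeR with no filter, against 0.793%. Limma-voom called 0 against 0.2%, and edgeR with a replicate block 0 against 0.00799%. All 8 tested genes had a log2 fold change below 0, as did 49.7% of all genes tested. Their median was -0.47, beside 0.00 over all genes tested, whose middle 50% ran from -0.15 to 0.15. The 3 knockout values lay below the 3 wild type values for 3 of the 8, against 10.1% of genes tested. In either direction, 15.4% of all genes tested differed nominally. Counts in the gene lists below stand beside these same shares, and small counts can lie near them.

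**Figure D2:**
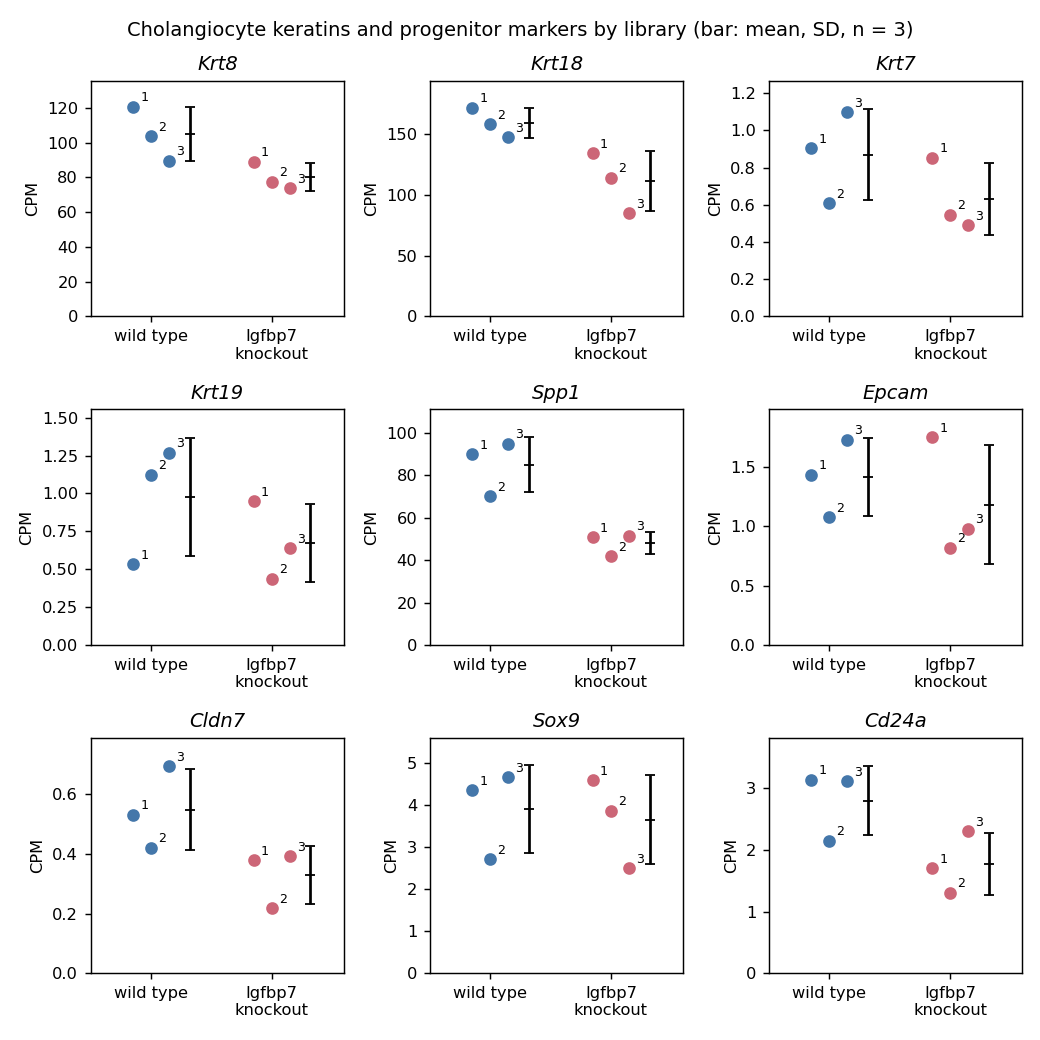
CPM of each of the 9 genes by library, with the replicate number beside each point and the mean and SD of 3 libraries as a bar (each axis starts at 0). The knockout points lie below all wild type points for Krt8, Krt18, Spp1 and Cldn7, and the groups overlap for the other 5 genes.

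The keratins shared by hepatocytes and duct cells were lower in the knockout livers without passing the threshold. Krt8, the type II keratin of simple epithelia, was at 121, 104 and 89.6 CPM in wild type against 89.1, 77.6 and 73.8 CPM in knockout libraries. The groups did not overlap, but the lowest wild type and the highest knockout library were nearly level. The means were 105 ± 15.5 and 80.2 ± 7.93 CPM (SD, n = 3 each), which gave a log2 fold change of -0.38 ± 0.12 (SE, 95% interval -0.67 to -0.10, edgeR adjusted p = 0.198). Without wild type replicate 1, the highest library, the log2 fold change was -0.27 and no longer nominal (edgeR unadjusted p = 0.0545). Krt8-ps, an annotated processed pseudogene, matches 941 bases of the Krt8 transcript at 98.6% identity, and reads aligned to both are not in the counts. Krt8 also overlaps Gm36026, a noncoding gene on the opposite strand, and with no strand setting stated their reads cannot be told apart.

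Krt18, the type I partner of Krt8, stood at 171, 158 and 147 CPM in wild type against 134, 114 and 85.0 CPM in knockout libraries. Here too every knockout library lay below every wild type library, and knockout replicate 3 was lowest. The means of 159 ± 12.2 and 111 ± 24.6 CPM (SD, n = 3 each) gave a log2 fold change of -0.52 ± 0.16 (SE, 95% interval -0.87 to -0.16, edgeR adjusted p = 0.177), which was -0.36 without knockout replicate 3.

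The balance of the partners was compared within libraries, where scaling drops out. The Krt8 count was 0.704, 0.658 and 0.610 of the Krt18 count in wild type against 0.665, 0.682 and 0.869 in knockout libraries. Knockout replicate 3 alone lay above the wild type range. The log2 ratio was -0.61 ± 0.10 in wild type and -0.45 ± 0.21 in knockout livers (SD, n = 3 each), a difference of 0.16 that was 0.04 without knockout replicate 3 (exact 2-sided permutation test, p = 0.4, where 3 against 3 cannot go below 0.1).

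Levels of Krt8 and Krt18 are given beside those of hepatocyte genes, because hepatocytes form most of the tissue. Of the 18 hepatocyte markers, 10 were higher and 8 lower, with a median log2 fold change at 0.04, and none was at 0. EdgeR called 0 of them, and DESeq2 called Cyp2e1 higher and Hpx lower. Their summed level was 139123 to 157980 CPM in wild type and 149196 to 175163 CPM in knockout libraries. Alb was the largest part of it, at 61827.8, 78720.3 and 61051.6 CPM in wild type against 85468.5, 65381.4 and 81219.5 CPM in knockout libraries. Ratios to this sum therefore depend largely on Alb. Krt8 and Krt18 together came to 2.09, 1.65 and 1.70 per 1000 CPM of hepatocyte markers in wild type against 1.27, 1.28 and 1.04 in knockout libraries. The knockout values were again all below the wild type values on this scale. In bulk tissue, fewer cells of a type and less RNA per cell cannot be told apart.

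The duct keratins were near the filter of 10 counts, and their groups overlapped. Krt7, the type II keratin of ducts, had 17, 13 and 19 counts in wild type against 18, 10 and 10 counts in knockout libraries, or 0.869 ± 0.246 and 0.630 ± 0.195 CPM (SD, n = 3 each). Its log2 fold change of -0.44 ± 0.36 (SE) had a 95% interval from -1.25 to 0.38 (edgeR adjusted p = 0.615). With 1 library left out it ran from -0.73, without knockout replicate 1, to -0.24, without wild type replicate 3. Krt7 overlaps the antisense gene Gm671, whose reads cannot be told apart from its own either.

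Krt19, a type I keratin used as a duct and progenitor marker, had 10, 24 and 22 counts in wild type against 20, 8 and 13 counts in knockout libraries. Wild type replicate 1 lay between the lower knockout libraries. The log2 fold change was -0.51 ± 0.41 (SE, 95% interval -1.46 to 0.43, edgeR adjusted p = 0.612). It was -0.84 without knockout replicate 1 and -0.80 without wild type replicate 1, but -0.29 without knockout replicate 2 and -0.30 without wild type replicate 3. The interval, from 0.365 to 1.35 times the wild type level, includes both lower and higher levels at this depth. Counting alone gives a coefficient of variation of 23.1% for a gene of this count, and the wild type libraries varied by 40.1%.

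Other keratins were nearly absent from the libraries. Of 27 listed, 17 had 0 counts in all 6 libraries and 2 were tested, Krt10 at 1.47 CPM in wild type livers and 1.38 CPM in the knockout and Krt23 at 1.67 and 1.84 CPM. Neither was called by edgeR, DESeq2 or limma-voom, and 0 differed nominally. Krt20, a keratin of gut epithelium, had 1 count, in knockout replicate 3. The 17 tested linkers and desmosome genes, which tie keratins to junctions, had 11 members higher and 6 lower, with a median log2 fold change at 0.06. EdgeR, DESeq2 and limma-voom called 0 of them, and 3 were nominally higher. These were Dsc2, a desmosomal cadherin, at 57.7 CPM in wild type livers and 70.4 CPM in the knockout, the keratin-binding protein gene Fbf1 at 7.61 and 13.5 CPM, and Jup, which encodes plakoglobin, at 47.8 and 56.1 CPM.

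Spp1 had the lowest p of the 9 genes and just missed the threshold. It encodes osteopontin, a secreted phosphoprotein that binds integrins and CD44. Its level was 90.1, 70.2 and 94.9 CPM in wild type against 50.9, 42.0 and 51.5 CPM in knockout libraries. The lowest wild type library, replicate 2, stood well above all knockout libraries. The mean of 85.1 ± 13.1 CPM in wild type against 48.1 ± 5.34 CPM in knockout livers (SD, n = 3 each) was a log2 fold change of -0.82 ± 0.13 (SE, 95% interval -1.13 to -0.52), or 0.566 of the wild type level. The adjusted p was 0.0596 by edgeR, 0.0382 by edgeR with robust estimation, 0.0254 by edgeR with no filter, 0.0643 by limma-voom and 3.09e-05 by DESeq2, and over all alternatives it reached 0.182, without wild type replicate 1. Spp1 shares 181 bases with the annotated transcript Gm42793 on the same strand, so reads from that stretch may be shared out or dropped.

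**Figure D3:**
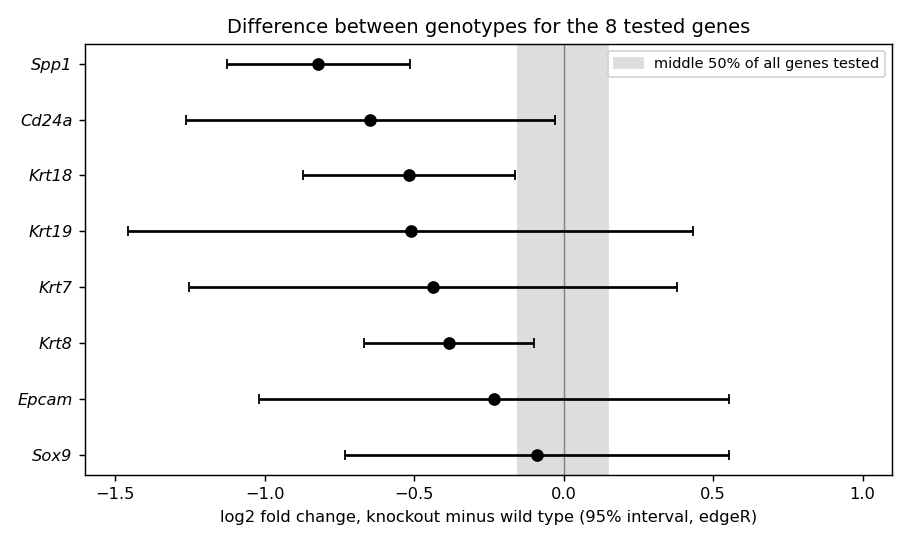
Log2 fold change (knockout minus wild type) of the 8 tested genes with the 95% interval from edgeR, and the middle 50% of all genes tested as a grey band. The intervals of Spp1, Cd24a, Krt18 and Krt8 end below 0 before any adjustment, and those of Krt19, Krt7, Epcam and Sox9 include 0.

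Macrophage genes were lower beside Spp1. Of 19 tested Kupffer cell and macrophage markers 18 were lower, with a median log2 fold change at -0.64. EdgeR called 0 of them. Nominally 15 were lower, against 7.35% of all genes tested, and DESeq2 called 12 lower, against 3.64% of genes in either direction. The 21 listed markers summed to 978, 948 and 888 CPM in wild type against 592, 501 and 786 CPM in knockout libraries, and none was at 0 in all libraries. Clec4f, a lectin that defines Kupffer cells, was at 188, 171 and 171 CPM in wild type against 110, 95.7 and 157 CPM in knockout libraries. Per 100 CPM of these markers, Spp1 stood at 9.21, 7.41 and 10.7 CPM in wild type against 8.60, 8.38 and 6.55 CPM in knockout libraries, so that the groups overlapped on this scale. Knockout replicate 3 had the highest macrophage sum of its group and an Spp1 level close to that of knockout replicate 1. The part of macrophages in the Spp1 difference was not tested. Relative to the sum of Krt8 and Krt18, Spp1 was at 0.308, 0.269 and 0.401 in wild type against 0.228, 0.219 and 0.324 in knockout libraries, which overlapped too.

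**Figure D4:**
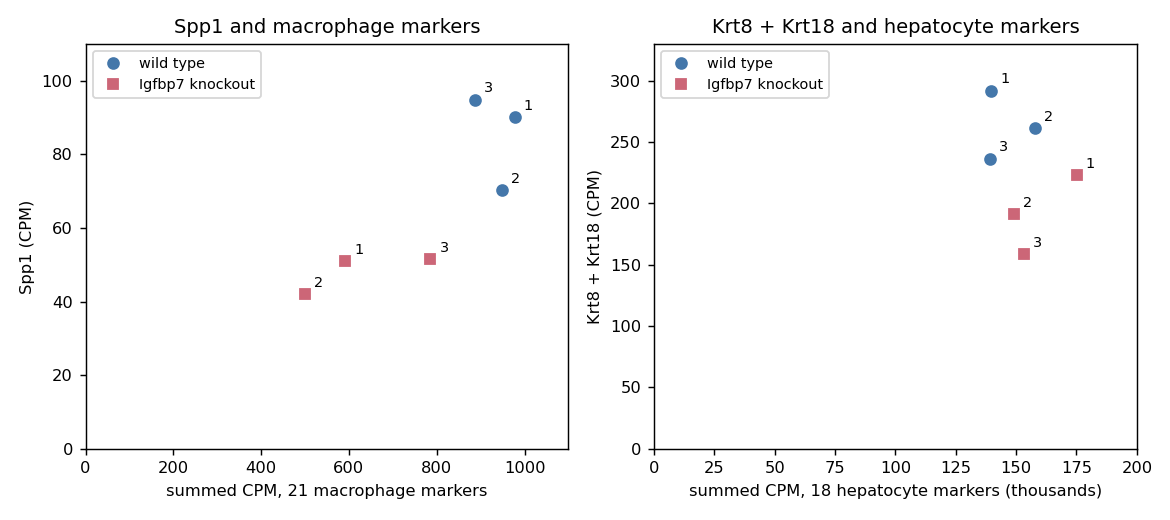
Left, Spp1 (CPM) against the summed CPM of 21 macrophage markers. Right, Krt8 plus Krt18 (CPM) against the summed CPM of 18 hepatocyte markers (in units of 1000 CPM), with 1 point per library, labelled by replicate. Knockout libraries lie lower on both axes on the left, and lower on the vertical axis only on the right.

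Genes for osteopontin receptors and for enzymes that act on osteopontin were lower in 10 of 13 tested members, at a median log2 fold change of -0.21. EdgeR and limma-voom called 0. Nominally 6 were lower, against 7.35% of all genes tested. DESeq2 called 2 lower, Cd44 and Tgm2, against 3.64% of genes in either direction. Cd44, a receptor of osteopontin and hyaluronan, was at 11.8, 13.0 and 9.75 CPM in wild type against 7.15, 5.68 and 7.90 CPM in knockout libraries. The log2 fold change was -0.74 ± 0.17 (SE, edgeR adjusted p = 0.105). Tgm2, a transglutaminase that crosslinks osteopontin, stood at 159 ± 19.5 and 113 ± 9.65 CPM, and Itga5, an integrin subunit, at 34.0 ± 4.04 and 25.4 ± 2.56 CPM (SD, n = 3 each). Each of these 3 genes had all knockout values below all wild type values, as did 10.1% of all genes tested. They were named for the lowest p in the list, which favours such a separation.

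Epcam and Cldn7, an adhesion molecule and a claudin that bind each other in epithelial membranes, were both scarce. Epcam had 27, 23 and 30 counts in wild type against 37, 15 and 20 counts in knockout libraries. Knockout replicate 1, at 1.75 CPM, was the highest of the 6 libraries and the other knockout libraries were the lowest. The log2 fold change was -0.23 ± 0.34 (SE, 95% interval -1.02 to 0.55, edgeR adjusted p = 0.804). It was -0.63 without knockout replicate 1 and -0.41 without wild type replicate 2, but -0.03 without knockout replicate 2, -0.07 without wild type replicate 3 and -0.11 without knockout replicate 3. Cldn7 did not pass the filter, at 10, 9 and 12 counts in wild type against 8, 4 and 8 counts in knockout libraries. Every knockout library lay below every wild type library in CPM. The ratio of pooled levels was 0.620 with an exact binomial 95% interval of 0.335 to 1.12, which covers counting error only.

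Other claudins and tight junction genes were split, with 9 of 21 higher and 12 lower, with a median log2 fold change at -0.06. EdgeR and limma-voom called 0. Nominally 5 were lower, against 7.35% of all genes tested, and 1 was higher. DESeq2 called 2 lower, Cldn1 and Cldn2, against 3.64% of genes in either direction. Cldn2, a pore-forming claudin of hepatocytes and ducts, averaged 132 ± 22.7 CPM in wild type against 87.9 ± 8.89 CPM in knockout livers (SD, n = 3 each). Cldn1, a sealing claudin, was at 135, 81.5 and 71.2 CPM against 64.9, 50.2 and 34.4 CPM, with wild type replicate 1 far above the rest. Cldn3, another sealing claudin, was at 79.4, 69.3 and 64.2 CPM against 61.0, 56.7 and 52.6 CPM. The groups did not overlap for any of these 3, which were named for the lowest p in the list, a choice that favours such a separation. Of 14 tested partners of CD24 and EPCAM, 9 were lower and 5 higher, at a median of -0.09. EdgeR, DESeq2 and limma-voom called 0, and 1 was nominally lower, Psen2, a subunit of the protease that cleaves EPCAM and Notch, at 189 CPM in wild type livers and 137 CPM in the knockout. Spint2, a protease inhibitor, was at 80.0 and 69.7 CPM and St14, the protease matriptase, at 0.907 and 0.545 CPM.

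Cd24a encodes a small glycoprotein anchored in the membrane by a lipid. It was at 59, 46 and 54 counts in wild type against 36, 24 and 47 counts in knockout libraries, or 2.80 ± 0.563 and 1.77 ± 0.502 CPM (SD, n = 3 each). Knockout replicate 3 lay above wild type replicate 2, so the groups overlapped. The log2 fold change of -0.65 ± 0.27 (SE, 95% interval -1.26 to -0.03) had an adjusted p of 0.304 by edgeR. The difference was no longer nominal when any of 4 libraries was left out, with edgeR unadjusted p = 0.118 and 0.116 without wild type replicate 1 or 3 and 0.0946 and 0.120 without knockout replicate 1 or 2. The log2 fold change then ran from -0.61 to -0.47, and it was -0.88 without knockout replicate 3. Gm6212 matches 218 bases of the Cd24a transcript at 96.8% identity, so reads may be lost or split. Markers of B and plasma cells had 7 of 8 tested members lower, at a median of -0.55, and summed to 9.26 to 11.7 CPM in wild type and 7.12 to 7.15 CPM in knockout libraries, with none of the 11 listed at 0 in all libraries. EdgeR and DESeq2 called 0 of them, and 3 were nominally lower, against 7.35% of all genes tested. Their part in the Cd24a difference was not tested.

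Sox9, a transcription factor needed for duct development, differed least. It was at 82, 58 and 81 counts in wild type against 97, 71 and 51 counts in knockout libraries, or 3.92 ± 1.05 and 3.66 ± 1.06 CPM (SD, n = 3 each). Both groups covered nearly the same range. The log2 fold change was -0.09 ± 0.28 (SE, edgeR adjusted p = 0.917), with a 95% interval of -0.73 to 0.55 that spans levels from 0.602 to 1.47 times wild type. The sign turned when 1 library was left out, to 0.06 without wild type replicate 3 and 0.12 without knockout replicate 3.

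Genes of the Notch, Hippo and YAP pathways, which act in duct formation, were close to balance in number. Both lists include targets of their pathway. Among 27 tested genes of the Notch pathway, which directs progenitors to the duct fate, 15 were lower and 12 higher, with a median log2 fold change at -0.06. EdgeR, DESeq2 and limma-voom called 0, and 1, Psen2, was nominally lower. Maml3, a Notch coactivator, was at 5.01 CPM in wild type livers and 3.68 CPM in the knockout, and Adam10, which cleaves Notch receptors, at 47.4 and 41.7 CPM. The Notch target Hes5 had 0 counts in all libraries. Of 21 tested Hippo and YAP genes, which set duct identity through YAP, 10 were higher and 11 lower, at a median of -0.01. EdgeR and limma-voom called 0, nominally 2 were higher and 2 lower, and DESeq2 called Amotl2 higher and Axl lower.

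Amotl2, a YAP target that restrains YAP, was at 38.2, 29.9 and 33.4 CPM in wild type against 50.3, 57.3 and 45.4 CPM in knockout libraries. All knockout values were higher (log2 fold change 0.59 ± 0.13, SE, edgeR adjusted p = 0.0927). Axl, a receptor kinase also found in macrophages, was at 37.8 CPM in wild type livers and 25.6 CPM in the knockout, and Jub, also called Ajuba, at 13.2 and 9.05 CPM. Of 19 tested SOX family and biliary fate factors, 12 were higher and 7 lower, at a median of 0.03. EdgeR and limma-voom called 0, nominally 3 were higher and 1 lower, and DESeq2 called 1 higher, Tbx3. Tbx3, a transcription factor of hepatoblasts, was at 20.0, 14.4 and 29.0 CPM in wild type against 33.9, 41.2 and 37.4 CPM in knockout libraries, Onecut2 at 109 and 138 CPM on average and Sox6 at 20.1 and 24.6 CPM.

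Further genes of the biliary epithelium were mostly lower, and none passed the threshold. Of 27 tested, 22 were lower and 5 higher, with a median log2 fold change at -0.30. EdgeR and limma-voom called 0. Nominally 4 were lower, against 7.35% of all genes tested, and 1 was higher. DESeq2 called 1 lower, Cdh1, against 3.64% of genes in either direction, so 1 of 27 lies near that share. Cdh1, the gene for E-cadherin, which hepatocytes and duct cells share, was at 116, 106 and 110 CPM in wild type against 93.8, 57.2 and 58.1 CPM in knockout libraries. Its groups did not overlap (log2 fold change -0.67 ± 0.18, SE, edgeR adjusted p = 0.144). Pkhd1, a protein of the duct cell cilium, was at 12.5 ± 1.04 and 9.14 ± 1.07 CPM (SD, n = 3 each). Lgals4, a galectin of gut epithelium, went the other way, at 0.576 CPM in wild type livers and 1.48 CPM in the knockout.

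**Figure D5:**
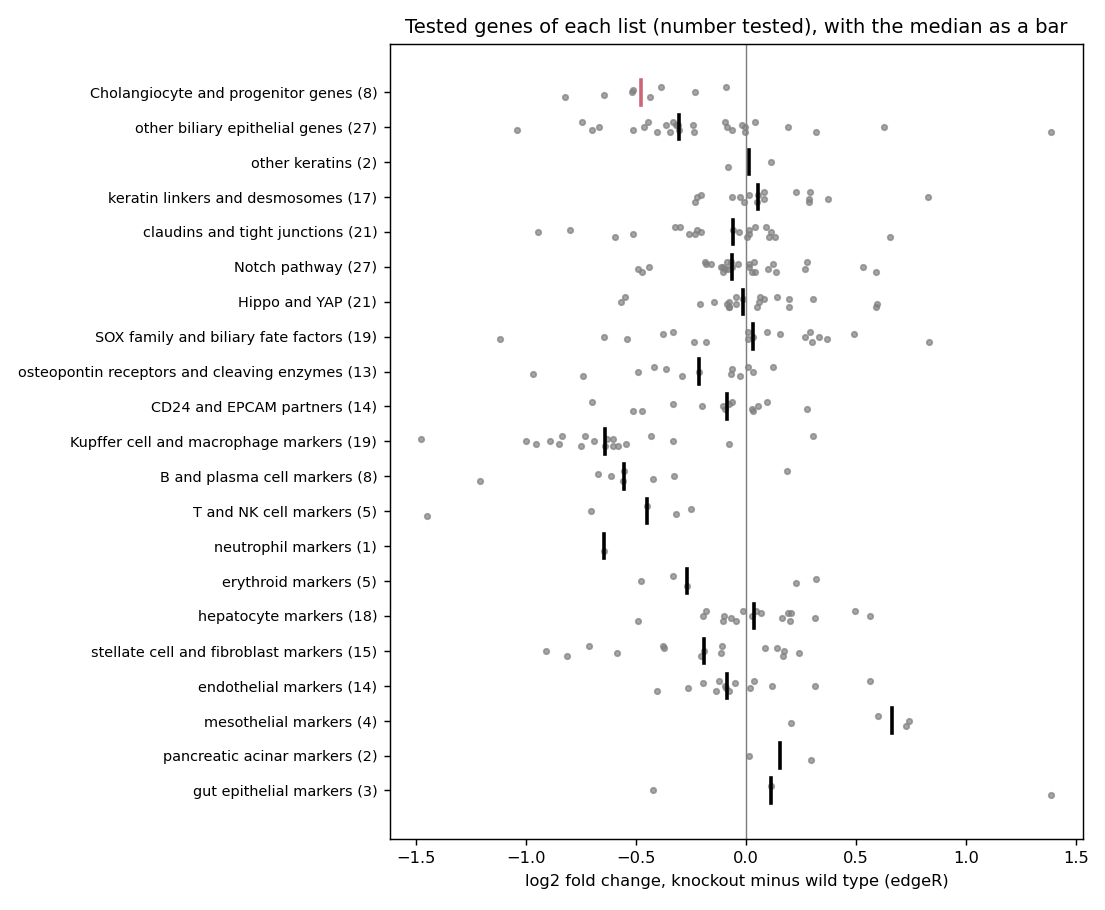
Log2 fold change (knockout minus wild type) of each tested gene in every list, with the number tested in brackets and the median as a bar, red for the cholangiocyte and progenitor genes. The macrophage markers centre at -0.64, the cholangiocyte and progenitor genes at -0.47 and the hepatocyte markers at 0.04.

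Other sources of simple keratins and of epithelial transcripts were looked at in the same way. Mesothelial cells, which cover the liver and express Krt7, Krt8, Krt18 and Krt19, had 4 tested markers, all higher in the knockout at a median of 0.66. The 9 listed in the files summed to 4.44 to 7.10 CPM in wild type and 5.87 to 10.9 CPM in knockout libraries, and none was at 0. EdgeR and DESeq2 called 0, and 1, Msln, was nominally higher. Of 18 pancreatic acinar markers 12 were at 0 in all libraries, among them Cpa1, Prss2 and Ptf1a, and of 13 gut epithelial markers 6 were at 0, among them Cdx1 and Cdx2. Not all were scarce. The acinar list summed to 23.5 to 29.8 CPM in wild type and 21.9 to 35.7 CPM in knockout libraries, mostly Cela1, at means of 26.9 and 27.2 CPM. The gut list summed to 64.5 to 82.8 CPM in wild type and 70.9 to 81.0 CPM in knockout libraries, mostly Fabp2, at means of 64.4 and 69.8 CPM. The 2 and 3 tested members of those lists had medians of 0.16 and 0.12, with 0 called by edgeR or DESeq2 and 1, Lgals4, nominally higher.

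Blood cell and stromal lists were read beside the same genes. T and NK cell markers were lower in 5 of 5 tested members, at a median of -0.45, and summed to 8.48 to 9.62 CPM in wild type and 4.42 to 6.39 CPM in knockout libraries, and the 1 tested neutrophil marker, Csf3r, had a log2 fold change of -0.64. Markers of erythroid cells, whose immature forms carry CD24, were lower in 3 of 5 and higher in 2, at a median of -0.27. They summed to 279 to 341 CPM in wild type and 258 to 296 CPM in knockout libraries. The globin genes Hba-a1 and Hbb-b1 were listed at 0, which does not show that they were silent, as alignments at several positions are not counted. The globin entry Beta-s was at 88.0, 50.2 and 46.6 CPM in wild type against 46.7, 47.4 and 52.9 CPM in knockout libraries. Stellate cell and fibroblast markers had 10 of 15 lower, at a median of -0.19, and endothelial markers 9 of 14 lower, at a median of -0.08. EdgeR, DESeq2 and limma-voom called 0 in these 5 lists. Nominally, 1 was lower in each, and 1 endothelial marker was higher.

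The 9 genes did not rank the libraries alike. Knockout replicate 2 was the lowest of the 6 for Spp1, Krt19, Epcam, Cldn7 and Cd24a, whereas knockout replicate 3 was lowest for Krt8, Krt18, Krt7 and Sox9. Likeness was measured as the root-mean-square difference between genes in log2 CPM centred on each gene's mean over the 6 libraries. The closest pairs were Krt7 and Epcam at 0.16, Krt8 and Krt18 at 0.16 and Spp1 and Cd24a at 0.18. Among the other tested genes, the 5 closest to Spp1 were Snora65 at 0.05, Gpr84, a receptor of myeloid cells, at 0.08, the chemokine gene Cx3cl1 at 0.09, and Lhx6 and Pmepa1 at 0.10 each. The 5 closest to the mean of the 4 keratins were Pgm5 and the membrane protease gene Mmp15 at 0.06 each, the laminin gene Lama1 and the mitochondrial enzyme gene Gpd2 at 0.07 each, and D18Ertd653e at 0.09. Snora65, Gpr84 and Cx3cl1 were scarce, at 1.17 CPM or less in every library. The keratin mean blends unlike patterns, as Krt19 differed from Krt18 by 0.49 and from Krt8 by 0.52. The genes named as closest were the nearest of 12522 genes over 6 libraries, and some nearest genes exist for any pattern.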

How the data were processed

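Wild type and Igfbp7 knockout liver RNA was extracted with a Qiagen miRNA kit and made into 3 TruSeq RNA libraries per genotype, per the labels' protocols. The authors deposited raw read counts per gene symbol, not normalized. HTSeq, TopHat2 2.0.8b and CASAVA 1.8.2 are listed, with the builds hg19 and mm9 and no roles, per the submitters' processing notes. Annotation and strandedness were not given in the sources used here. The 5 rows naming no gene were left out. Reads outside genes made up 10.69%, 9.65% and 11.30% of uniquely placed reads in wild type against 11.33%, 12.30% and 12.48% in knockout libraries. Every knockout library thus lay above every wild type library, though the nearest were almost level, and the cause was not tested. Alignments at several positions are not counted, so genes with near copies can be low.

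Genes were kept by filterByExpr (minimum count 10), scaled by TMM and tested with edgeR 4.0.16 in R 4.3.3, a quasi-likelihood test adjusted by Benjamini-Hochberg over all 12522 genes. SEs come from the F statistic. Log2 CPM used a prior count of 2. The Krt8 to Krt18 ratio had an exact permutation test. DESeq2 1.42.0 and limma-voom (3.58.1) were alternatives, beside other scalings, filters, a replicate block and each library left out. The test was checked on simulated data, where it called 23.8% of 1.5-fold, 57.1% of 2-fold and 97.2% of 4-fold changes. It also called 16 unchanged genes there. Real differences of 2-fold or less can thus be missed. Near-identical transcripts (at least 100 bases at 95% identity) were found with blastn 2.17.0 in GENCODE M21, which is on GRCm38 and may differ from the authors' build. The 9 genes and the gene lists were chosen with earlier results of these data known, and the ratios to marker sums and levels per kilobase after seeing the data. All 9 are named, and of each pathway list the 3 genes with the lowest p, besides the 5 nearest genes to Spp1 and to the keratins. Some genes stand in several lists.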

Additional observations from a re-analysis of the deposited data

How the results depend on the processing

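No gene of the 9 was called by edgeR with 3 other scalings, a stricter filter, limma-voom, an adjusted p under 0.01 or any 1 library left out (lowest and highest count 0). With no filter, DESeq2 or robust estimation 1 was called, Spp1. The 27 genes called over all became 133 with no filter, 438 with DESeq2, 68 with robust estimation and 1 at an adjusted p under 0.01, and 3 to 36 with 1 library left out (4 and 5 when wild type replicate 2 or 1 was dropped, 3 and 13 when knockout replicate 2 or 3 was). The median log2 fold change of the tested members, with Cldn7 among them in some fits and Krt7 and Krt19 filtered out in another, was -0.68 to -0.36, and 15 of 15 alternatives kept it within the spread between libraries, 0.26. Spp1 ranged from -0.95 to -0.73. Sox9 stood at -0.31 without wild type replicate 2 and changed sign elsewhere, to 0.06 without wild type replicate 3 and 0.12 without knockout replicate 3, where the cause was not tested. The members at an unadjusted p under 0.05 were 2 without wild type replicate 1. The difference in the Krt8 to Krt18 log2 ratio was 0.04 to 0.23 with 1 library left out.

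Whether replicate numbers pair the samples is not stated. Same-numbered libraries had deviations correlated at -0.08, -0.10 and -0.04, and none correlated best with its own number. With 3 libraries per group this shows no pairing but cannot exclude it. A replicate block lowered the SE for Spp1 (0.13 to 0.08), Krt8 (0.12 to 0.08), Krt18 (0.16 to 0.11), Epcam and Cd24a. The SE rose for Krt7, Krt19 and Sox9. With the replicate block 1 gene was called over all and 0 of the 9 (Spp1 edgeR adjusted p = 0.0554), and the keratin ratio differed by 0.16 (exact sign-flip permutation, p = 0.75, smallest possible 0.25). Depth limits Krt7, Krt19, Epcam and Cldn7, at 4 to 37 counts per library.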
